A study of Homo sapiens with 19 samples.

Results

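Transcripts of 10 human cell cycle genes were followed across 17 RNA-seq libraries of MDA-MB-231, an established cell line of triple-negative breast cancer. The 10 were listed by Ensembl transcript ID, 1 per gene, out of 175775 transcripts in each table, and all 10 were present. They are the cyclins CCND1 (ENST00000227507), CCNE1 (ENST00000262643) and CCNB1 (ENST00000256442), the cyclin-dependent kinases CDK1 (ENST00000395284), CDK2 (ENST00000266970), CDK4 (ENST00000257904) and CDK6 (ENST00000265734), the CDK inhibitors CDKN1A (ENST00000244741) and CDKN1B (ENST00000228872), and MKI67 (ENST00000368654), which is neither a cyclin nor a kinase but the gene of the proliferation marker Ki-67. In the siRNA experiment, cells received 30 nM of an siRNA against STAT3 (siSTAT3, 2 libraries), of an siRNA against HMGN5 (siHMGN5, 2 libraries) or of control siRNA (NC, 4 libraries). In the lentiviral experiment, 3 libraries came from cells given STAT3 siRNA and infected with HMGN5 (siSTAT3_HMGN5), 3 from cells given STAT3 siRNA and the control vector (siSTAT3_Vec), and 3 from cells given control siRNA and that vector (NC_Vec). STAT3 is a transcription factor that JAK kinases activate. HMGN5 binds nucleosomes and loosens compact chromatin. All cells were kept in L15 medium with 10% serum, and nothing in the labels says that replicates came from separate cultures, and the p-values therefore describe the spread among these samples alone, which may be technical.

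Progress through the cell cycle depends on kinases that act only when a cyclin is bound. Cyclin D with CDK4 or CDK6 and cyclin E with CDK2 drive cells out of the first gap phase by phosphorylating the retinoblastoma protein, and cyclin B with CDK1 drives entry into mitosis. CDKN1A (p21) and CDKN1B (p27) bind these complexes and restrain them. CCND1 is widely described as a target of STAT3, and MKI67 and CCNB1 transcripts are abundant in dividing cells and scarce in resting ones.

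Libraries held 19114033 to 19509422 estimated reads in the siRNA experiment and 22500086 to 23047081 in the lentiviral one. The NC libraries stood apart as 2 pairs: the mean chi-square per transcript was 32.5 to 33.8 between the pairs, against 15.5 and 15.8 inside them and 14.0 to 17.8 for replicates elsewhere. Comparisons with NC are therefore given over its 4 libraries and for the pairs apart. STAT3 and HMGN5 levels were not checked, because no table at hand pairs transcript IDs with other gene names. Knockdown below therefore names the siRNA given and not a measured loss. Values are CPM, the estimated reads scaled to the TMM-adjusted library size, unless TPM is named. Where groups are said not to overlap or to be separate, this is a description and no test. The share of all transcripts that do likewise is not given. Each value is of 1 transcript: the quantification divides reads among transcripts of a gene, RefSeq lists 1 to 12 of them for these genes, and no member detected in a library had a whole number of reads there (within 0.0015), so a level or difference of the whole gene was not measured.

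Of the 10 transcripts, 7 had at least 10 reads in every library and 3 did not. CDK4, on chromosome 12 from 57747727 to 57752310 (GRCh38.p14), was listed at 0 in 15 of 17 libraries, with 14.9 reads in siSTAT3 replicate 2 and 16.3 in NC replicate 1. CDK1, on chromosome 10 from 60778331 to 60794852, was listed at 0 in 8 libraries, among them all 4 of NC. It had 241 and 0 reads in siSTAT3 and 0 and 45.9 in siHMGN5. In the lentiviral experiment CDK1 had 189, 0 and 186 reads in siSTAT3_HMGN5, 583, 277 and 498 in siSTAT3_Vec, and 0, 712 and 668 in NC_Vec. Within siSTAT3, siHMGN5, siSTAT3_HMGN5 and NC_Vec, CDK1 was thus at 0 in 1 replicate and detected in another. A listed 0 can be a failed estimate, where reads went to another transcript of the gene, so no fold change is given for these 3. CCNE1, on chromosome 19 from 29811991 to 29824312, was listed at 0 in 5 libraries. It had 120.4 and 133 reads in siSTAT3, 43.7 and 55.7 in siHMGN5, and 27.7, 26.3, 0 and 16.0 in NC. Both siSTAT3 libraries and both siHMGN5 libraries held more CCNE1 reads than any NC library, but neither difference passed the test (edgeR quasi-likelihood test, adjusted p = 0.261 for siSTAT3 and 0.602 for siHMGN5). It had 56.1, 47.4 and 53.4 reads in siSTAT3_HMGN5, 53.2, 0 and 0 in siSTAT3_Vec, and 6.52, 0 and 0 in NC_Vec.

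**Figure D1:**
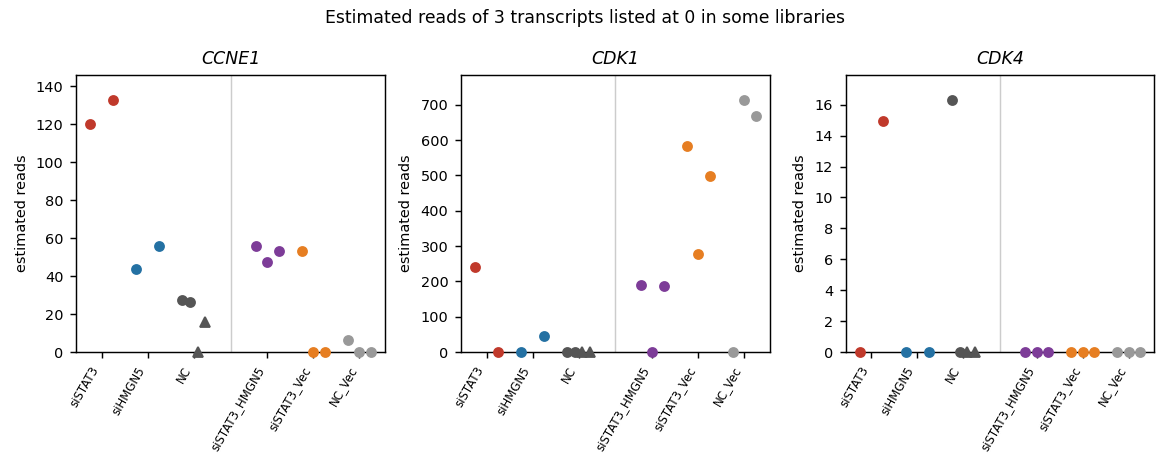
Estimated reads of CCNE1, CDK1 and CDK4 in each library, 1 point per library, with the siRNA experiment left of the grey line, the lentiviral experiment right of it, and triangles for NC replicates 3 and 4. CDK4 had reads in 2 of 17 libraries, and CDK1 in 9.

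Per length, CCND1 was the most abundant of the 7 in every group and MKI67 the least. In TPM, CCND1 averaged 30.4 ± 0.701 in siSTAT3 (SD, n = 2), 54.5 ± 2.49 in siHMGN5 (SD, n = 2) and 70.2 ± 17.6 in NC (SD, n = 4). It averaged 31.3 ± 2.21 TPM in siSTAT3_HMGN5, 32.5 ± 0.863 in siSTAT3_Vec and 46.4 ± 0.824 in NC_Vec (SD, n = 3 each). MKI67 lay at 0.83 ± 0.173 TPM in siSTAT3, 2.15 ± 0.417 in siHMGN5 and 4.13 ± 1.21 in NC, and at 0.587 ± 0.139 in siSTAT3_HMGN5, 0.587 ± 0.0996 in siSTAT3_Vec and 1.71 ± 0.215 in NC_Vec. The order between these ends differed between groups. In siSTAT3_Vec and siSTAT3_HMGN5 both inhibitors stood next to CCND1, CDKN1B at 22.7 ± 0.904 and 18.8 ± 1.19 TPM and CDKN1A at 18.6 ± 2.85 and 14.7 ± 0.967, above CDK2 at 7.45 ± 0.683 and 5.94 ± 0.155. In NC_Vec the place below CCND1 was held by CDK2 at 13.5 ± 1.09 TPM, above CDKN1B at 11.4 ± 0.304 with no overlap. CDKN1A, at 10.8 ± 2.08 TPM in NC_Vec, overlapped with both in its range. In siSTAT3, CDKN1A at 12.1 ± 0.317 TPM and CDKN1B at 9.86 ± 0.639 also stood above CDK2 at 6.66 ± 0.155. In NC, the neighbours from CDK2 at 12.4 ± 2.15 TPM down to CCNB1 at 7.87 ± 0.618 overlapped in their ranges, so their order was not resolved. The same held for CDK2 and CDK6, and for CDKN1B and CDKN1A, in siHMGN5, for CCNB1 and CDK6 in siSTAT3, and for CDK6 and CDK2 in siSTAT3_HMGN5.

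**Figure D2:**
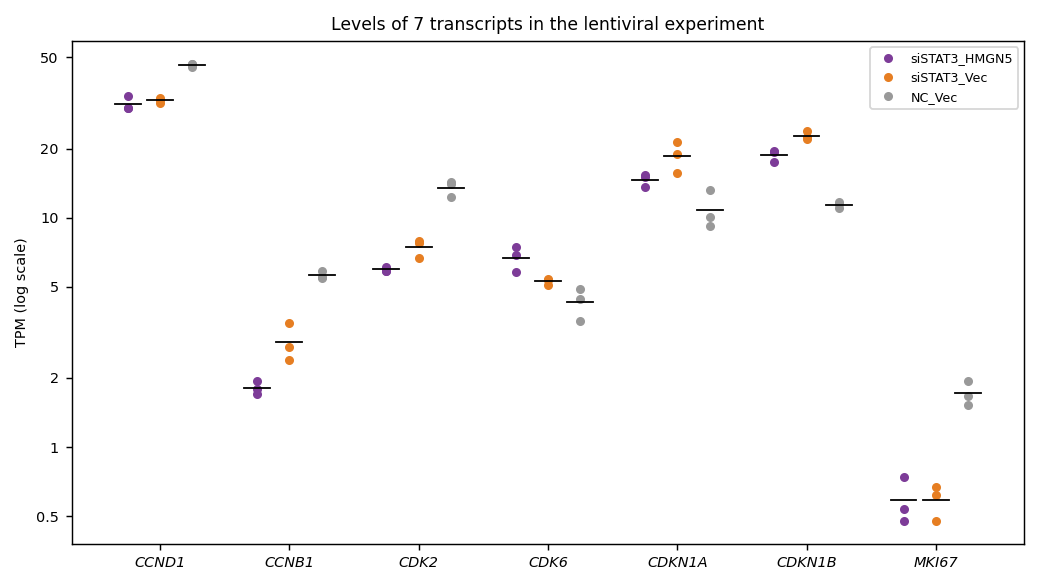
TPM (log axis) of the 7 transcripts in the lentiviral experiment, 1 point per library and a bar at each group mean. CDKN1A and CDKN1B lie above CDK2 in siSTAT3_HMGN5 and siSTAT3_Vec, while CDK2 lies above both means in NC_Vec.

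Promoter windows are shown for the 2 proliferation genes, MKI67 and CCNB1, since mitotic genes are known to share short promoter elements, and for the 2 inhibitors, which differed in the opposite direction in siSTAT3_Vec. RefSeq windows (GRCh38.p14, 250 bases before to 50 after a gene start) were at hand for 8 of the 10 genes, in 10 windows. Whether they are the starts of the transcripts measured here was not checked. Capitals mark TTTGAA (the CHR element of mitotic genes), CCAAT, the E2F words TTTCGCGC and TTTGGCGC, and the STAT word TTCNNNGAA, each searched on both strands. Of 35116 windows of this length, 15.2% held TTTGAA, 34.6% CCAAT, 0.515% TTTCGCGC, 0.652% TTTGGCGC and 7.66% TTCNNNGAA.
MKI67 (chr10:128126374-128126673, minus strand): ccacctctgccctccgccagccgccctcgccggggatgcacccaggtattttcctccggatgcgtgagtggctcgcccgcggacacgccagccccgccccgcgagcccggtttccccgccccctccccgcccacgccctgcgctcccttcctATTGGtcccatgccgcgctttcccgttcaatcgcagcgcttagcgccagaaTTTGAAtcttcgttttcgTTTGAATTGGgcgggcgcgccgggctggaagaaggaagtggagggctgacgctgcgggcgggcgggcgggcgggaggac
CCNB1 (chr5:69166900-69167199, plus strand): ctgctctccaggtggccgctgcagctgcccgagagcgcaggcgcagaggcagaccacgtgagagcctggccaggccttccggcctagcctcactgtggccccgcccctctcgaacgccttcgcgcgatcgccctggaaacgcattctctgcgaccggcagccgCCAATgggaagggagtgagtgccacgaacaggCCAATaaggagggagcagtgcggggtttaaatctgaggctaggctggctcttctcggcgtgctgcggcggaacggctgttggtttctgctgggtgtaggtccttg
CDKN1B (chr12:12717118-12717417, plus strand): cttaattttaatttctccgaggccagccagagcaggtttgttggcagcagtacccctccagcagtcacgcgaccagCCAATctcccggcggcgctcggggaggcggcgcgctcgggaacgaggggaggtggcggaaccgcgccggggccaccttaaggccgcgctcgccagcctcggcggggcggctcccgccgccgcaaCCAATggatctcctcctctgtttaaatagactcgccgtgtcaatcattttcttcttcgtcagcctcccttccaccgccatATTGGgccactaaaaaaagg
CDKN1A (chr6:36678464-36678763, plus strand): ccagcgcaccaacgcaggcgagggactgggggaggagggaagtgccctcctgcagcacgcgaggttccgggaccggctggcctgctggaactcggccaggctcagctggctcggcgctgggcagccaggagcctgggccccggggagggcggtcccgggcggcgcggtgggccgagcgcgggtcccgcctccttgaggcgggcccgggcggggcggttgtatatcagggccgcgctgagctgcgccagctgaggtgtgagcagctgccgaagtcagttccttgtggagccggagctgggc
Counting the first transcribed base as 1 and the base before it as -1, MKI67 held TTTGAA at -47 to -42 and at -29 to -24, and CCAAT on the opposite strand at -98 to -94 and at -24 to -20, sharing 1 base with the nearer TTTGAA. CCNB1 held CCAAT at -87 to -83 and at -55 to -51. CDKN1B held CCAAT at -174 to -170 and -50 to -46, and on the opposite strand at 31 to 35. None of the words lay in the windows of CDKN1A, CDK4, CDK6 or CCNE1, and TTCNNNGAA lay in none of the 10 windows. One of the CDK1 windows, at chr10:60778228-60778527, held TTTGAA 3 times and TTTCGCGC at -128 to -121. It also held CCAAT on the opposite strand at -78 to -74 and -46 to -42. The other CDK1 window, at chr10:60778081-60778380, overlaps it. That window held TTTGAA at -161 to -156 and CCAAT at -150 to -146. Its TTTCGCGC at 20 to 27 is the same site as the one at -128 to -121 of the first window, counted from another start. These are matches of letters and not measured sites.

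STAT3 siRNA was first compared with control siRNA without a vector. MKI67 and CCNB1 fell and CDKN1A rose in siSTAT3. These were 3 of the 10 members, where 4.28% of all 74346 transcripts tested passed (edgeR quasi-likelihood test, p adjusted by Benjamini-Hochberg, under 0.05) and 14.1% of those with a mean of at least 10 CPM. Of the 7 members with reads throughout, 6 lay lower and 1 higher in siSTAT3, with a median log2 fold change of -0.80 against 0.00 over all transcripts.

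MKI67 had 18.4 and 25.4 CPM in siSTAT3, against 128, 92.2, 67.3 and 85.3 CPM in NC. Both siSTAT3 libraries lay below every NC library, and the log2 fold change was -2.09 ± 0.30 (SE, adjusted p = 0.0154), 4.26-fold lower. CCNB1, the mitotic cyclin, had 13.9 and 17.6 CPM in siSTAT3, against 25.1, 30.3, 25.3 and 29.1 CPM in NC. The groups did not overlap, and CCNB1 was 1.74-fold lower (log2 fold change -0.80 ± 0.15, adjusted p = 0.0376). CDKN1A, the inhibitor known as a p53 target, had 48.5 and 52.0 CPM in siSTAT3, against 21.0, 30.1, 30.7 and 31.2 CPM in NC. Again the groups did not overlap, and CDKN1A was higher by 1.78-fold (log2 fold change 0.83 ± 0.17, adjusted p = 0.0482). In bulk RNA, fewer cells that carry a transcript and less of it per cell cannot be told apart. With either siSTAT3 replicate left out, MKI67, CCNB1 and CDKN1A all missed the threshold in the same direction (adjusted p 0.0769 to 0.268), the lone library being given the spread of the others. The CCNB1 call also ended without any 1 NC library, at adjusted p 0.0587 to 0.0803, and that of CDKN1A without NC replicate 2, 3 or 4, at 0.0785 to 0.0869. Both also missed it without the filter on low counts (CCNB1 0.0602, CDKN1A 0.08) and with only siSTAT3 and NC in the fit (0.0708 and 0.0877), and CDKN1A with RLE size factors (0.0502).

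CCND1, CDK2 and CDK6 were lower in both siSTAT3 libraries than in every NC library without passing the test. CCND1 had 261 and 259 CPM in siSTAT3, against 397, 411, 628 and 632 CPM in NC (log2 fold change -0.99 ± 0.23, adjusted p = 0.0711). CDK2 had 28.0 and 29.7 CPM in siSTAT3, against 53.0, 52.9, 41.9 and 37.6 CPM in NC (log2 fold change -0.68 ± 0.17, adjusted p = 0.0944). CDK6 had 83.5 and 76.9 CPM in siSTAT3, against 122, 121, 232 and 221 CPM in NC (log2 fold change -1.12 ± 0.32, adjusted p = 0.131). For these genes NC replicates 1 and 2 lay on one side of replicates 3 and 4, and against either pair alone all passed. Against NC replicates 1 and 2 the log2 fold changes were -0.64 for CCND1, -0.88 for CDK2 and -0.60 for CDK6 (adjusted p 0.00112, 0.00962 and 0.00501). Against NC replicates 3 and 4 they were -1.28, -0.46 and -1.50 in the same order (adjusted p 0.000232, 0.0496 and 0.00039). In all, 6 of the 10 members passed against each pair, where 7.13% of all transcripts did against replicates 1 and 2 and 9.85% against replicates 3 and 4. The share among those with a mean of at least 10 CPM is not given for these fits. The 5 that passed against both pairs were CCND1, CCNB1, CDK2, CDK6 and MKI67, all lower in siSTAT3. In fits against 1 pair, here and below, the difference between the NC pairs is not part of the spread. Their adjusted p therefore measure the spread inside groups alone.

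The other CDK inhibitor had no single direction in the siRNA experiment. CDKN1B had 51.4 and 47.9 CPM in siSTAT3, against 42.1, 36.8, 68.0 and 68.6 CPM in NC, so siSTAT3 lay between the NC pairs (log2 fold change -0.12 ± 0.28, adjusted p = 0.914). Its log2 fold change was 0.33 against NC replicates 1 and 2 (adjusted p = 0.1) and -0.46 against NC replicates 3 and 4 (adjusted p = 0.0317). For CDKN1A the values were 0.97 (adjusted p = 0.0324) and 0.70 (adjusted p = 0.0688).

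The pairs of control libraries themselves differed at 3 of the 10 members, where 4.39% of all transcripts passed. The pairs were set from these same data and not from labels. The adjusted p between them therefore describe the split and are no independent test of it. In NC replicates 3 and 4 against NC replicates 1 and 2, CDK6 was higher by 1.86-fold (log2 fold change 0.90 ± 0.06, adjusted p = 0.0038), CDKN1B 1.73-fold higher (0.79 ± 0.09, adjusted p = 0.0125) and CCND1 1.56-fold higher (0.64 ± 0.03, adjusted p = 0.00286). The remaining log2 fold changes between the pairs were -0.03 ± 0.16 for CCNB1, 0.28 ± 0.17 for CDKN1A, -0.41 ± 0.10 for CDK2 and -0.53 ± 0.24 for MKI67 (adjusted p 0.105 to 0.993). CDKN1B lost its call without NC replicate 2, 3 or 4 (adjusted p 0.0603 to 0.0628). Since siSTAT3 and siHMGN5 each consist of 1 pair, a shift of this kind and the treatment cannot be told apart.

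**Figure D3:**
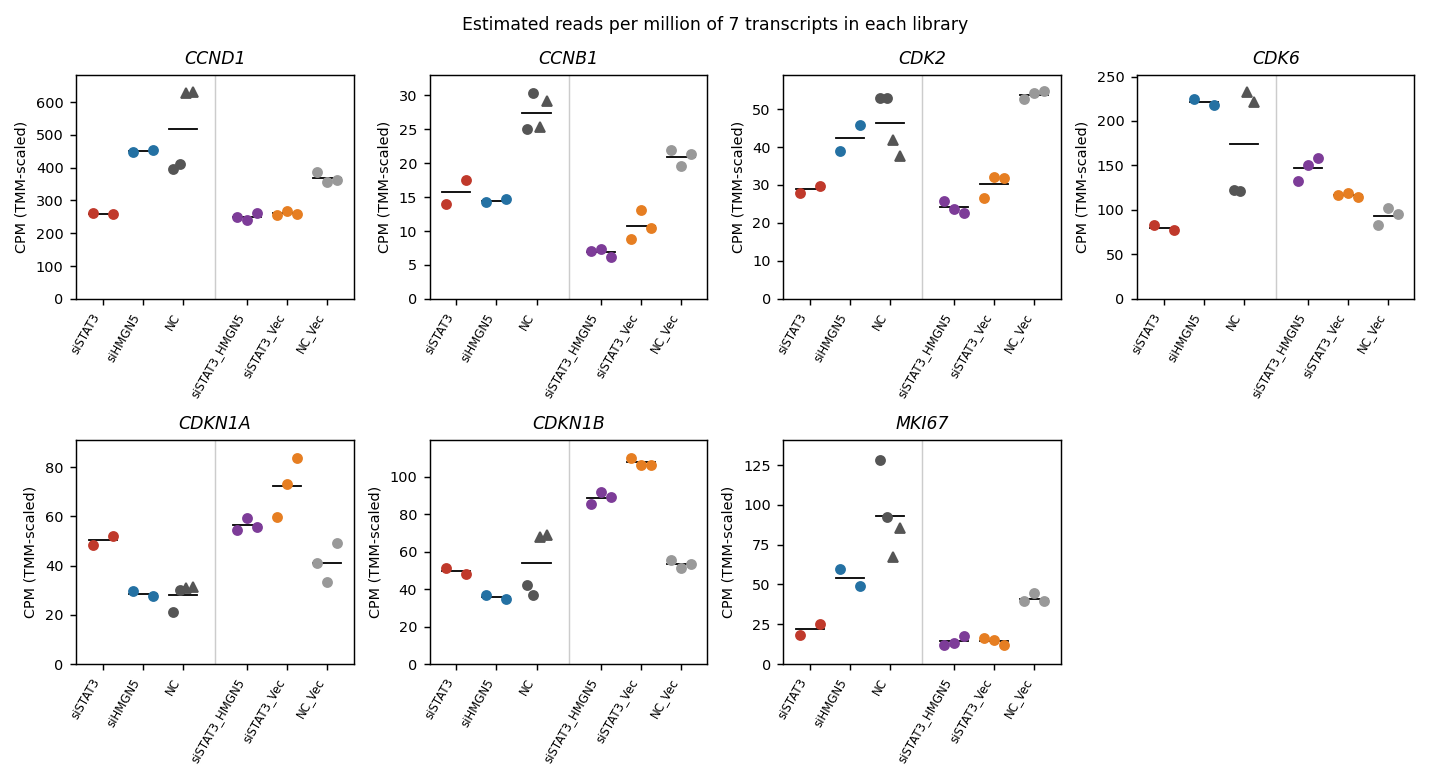
CPM of the 7 transcripts in each library, 1 point per library and a bar at the group mean, with the siRNA experiment left of the grey line and triangles for NC replicates 3 and 4. CCND1, CDK6 and CDKN1B split the NC libraries into 2 levels, while CCNB1 does not.

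HMGN5 siRNA was compared with the same NC libraries. CCNB1 fell in siHMGN5, and it was the only one of the 10 members to pass, where 3.39% of all transcripts did and 11.8% of those with a mean of at least 10 CPM. CCNB1 had 14.3 and 14.7 CPM in siHMGN5, against 25.1, 30.3, 25.3 and 29.1 CPM in NC. The groups did not overlap, and CCNB1 was 1.89-fold lower (log2 fold change -0.92 ± 0.15, adjusted p = 0.0288). Its log2 fold change was -0.93 against NC replicates 1 and 2 and -0.91 against replicates 3 and 4 (adjusted p 0.0373 and 0.0268). The call ended without NC replicate 2, 3 or 4 (adjusted p 0.0527 to 0.0667) and without siHMGN5 replicate 1 or 2 (adjusted p 0.195 and 0.173).

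MKI67 had 59.7 and 49.0 CPM in siHMGN5, below every NC library, with a log2 fold change of -0.78 ± 0.28 that did not pass (adjusted p = 0.226). CDKN1A had 29.6 and 27.6 CPM in siHMGN5, within the NC range of 21.0 to 31.2 CPM (log2 fold change 0.02 ± 0.17, adjusted p = 0.987). CDK2 had 39.0 and 45.8 CPM in siHMGN5, also within the NC range (log2 fold change -0.13 ± 0.17, adjusted p = 0.815). For the 3 members at which the NC pairs differed, the value depended on the pair. CDK6 had 225 and 218 CPM in siHMGN5, with a log2 fold change of 0.86 against NC replicates 1 and 2 (adjusted p = 0.00246) and -0.036 against replicates 3 and 4 (adjusted p = 0.806). CCND1 had 448 and 452 CPM, with 0.15 against replicates 1 and 2 (adjusted p = 0.066) and -0.49 against replicates 3 and 4 (adjusted p = 0.00155). CDKN1B had 37.0 and 34.5 CPM, with -0.14 (adjusted p = 0.492) and -0.94 (adjusted p = 0.00375) against the same pairs. Counted per pair, 2 members passed against NC replicates 1 and 2, where 5.6% of transcripts did, and 3 passed against NC replicates 3 and 4, where 10.3% did. With all 4 NC libraries the median log2 fold change of the 7 was -0.20, against -0.0017 over all transcripts.

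**Figure D4:**
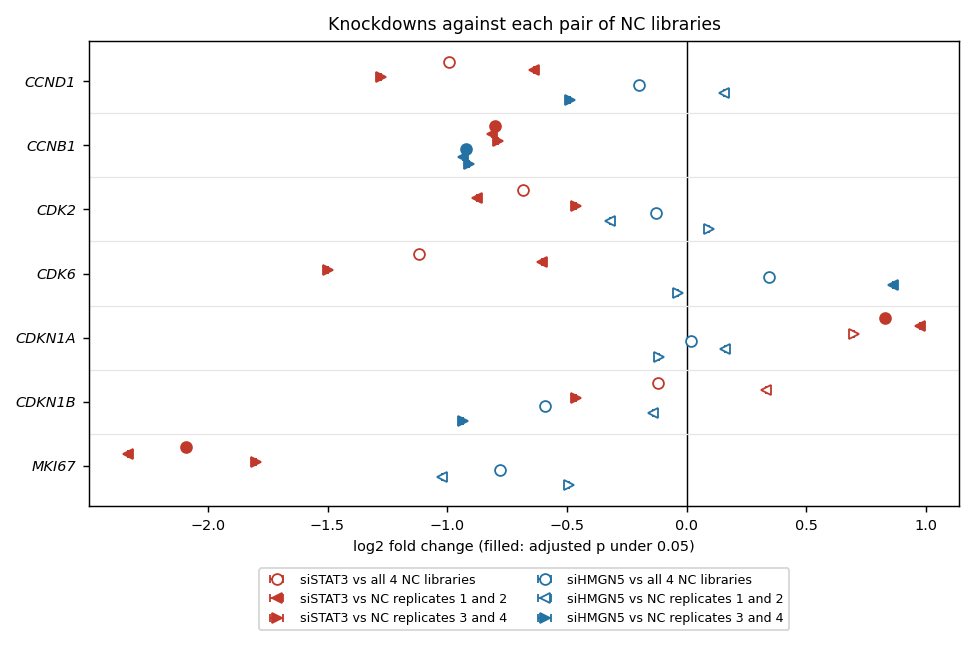
Log2 fold changes of siSTAT3 (red) and siHMGN5 (blue) against all 4 NC libraries and against each pair of them, with filled symbols where the adjusted p was under 0.05. The 6 symbols of CCNB1 lie between -0.93 and -0.79, whereas those of CDKN1B span both signs for siSTAT3.

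Set directly against each other, siSTAT3 and siHMGN5 differed at 0 of the 10 members by the edgeR test, where 3.89% of all transcripts passed and 12.8% of those with a mean of at least 10 CPM. The unadjusted p was under 0.05 for 5 of the 7 members with reads throughout and for 16.8% of all transcripts. With DESeq2, 4 members passed, as did 11.5% of all transcripts. MKI67 was lower in siSTAT3, with 18.4 and 25.4 CPM against 59.7 and 49.0 CPM in siHMGN5 (log2 fold change -1.31 ± 0.31, adjusted p = 0.0833). CDK6 was lower, with 83.5 and 76.9 CPM in siSTAT3 against 225 and 218 CPM in siHMGN5 (-1.46 ± 0.36, adjusted p = 0.0901). CDKN1A was higher, with 48.5 and 52.0 CPM in siSTAT3 against 29.6 and 27.6 CPM in siHMGN5 (0.81 ± 0.20, adjusted p = 0.0933). The libraries of the 2 groups did not overlap at any of these, which with 2 libraries each is a description and no test. This comparison uses no NC library for the fold change, but the shared estimate of spread includes the difference between the NC pairs. With only siSTAT3 and siHMGN5 in the fit, CCND1 passed as lower in siSTAT3 (adjusted p = 0.0225), CDK6 as lower (adjusted p = 0.0222) and CDKN1A as higher (adjusted p = 0.0364), where 5.26% of all transcripts passed. CCNB1 was close in both knockdowns, with a log2 difference of 0.12 ± 0.17 (adjusted p = 0.839).

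In cells with the control vector, the effect of STAT3 siRNA was measured against control siRNA with 3 libraries each. Here 6 of the 10 members passed. MKI67, CCNB1, CDK2 and CCND1 fell in siSTAT3_Vec, and CDKN1A and CDKN1B rose. Of all 69768 transcripts tested 14.3% passed, and 38.6% of those with a mean of at least 10 CPM. The median log2 fold change of the 7 was -0.50, against 0.017 over all transcripts. CDK4 was not tested here, being listed at 0 in all 9 libraries.

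MKI67 had 16.3, 15.1 and 11.9 CPM in siSTAT3_Vec, against 39.4, 44.7 and 39.6 CPM in NC_Vec. It was 2.85-fold lower (log2 fold change -1.51 ± 0.17, adjusted p = 0.000908). CCNB1 had 8.87, 13.1 and 10.4 CPM in siSTAT3_Vec, against 21.9, 19.6 and 21.3 CPM in NC_Vec, and was 1.94-fold lower (log2 fold change -0.95 ± 0.15, adjusted p = 0.00512). The groups were separate at both genes, and the spread between replicates was small beside the difference. CDK2, the partner of cyclin E, had 26.7, 32.1 and 32.0 CPM in siSTAT3_Vec, against 52.5, 54.3 and 54.7 CPM in NC_Vec (1.78-fold lower, log2 fold change -0.83 ± 0.09, adjusted p = 0.000668). CCND1 had 257, 268 and 258 CPM in siSTAT3_Vec, against 386, 355 and 363 CPM in NC_Vec (1.41-fold lower, log2 fold change -0.50 ± 0.05, adjusted p = 0.000381). CCND1 thus had a smaller fold difference than CDK2 with closely grouped replicates.

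Both inhibitors rose with STAT3 siRNA in the vector cells. CDKN1B had 110.1, 106 and 106 CPM in siSTAT3_Vec, against 55.5, 51.3 and 53.5 CPM in NC_Vec, and was higher by 2.01-fold (log2 fold change 1.01 ± 0.05, adjusted p = 1.96e-05). CDKN1A had 59.6, 73.3 and 83.6 CPM in siSTAT3_Vec, against 41.2, 33.5 and 49.1 CPM in NC_Vec, and was higher by 1.75-fold (log2 fold change 0.81 ± 0.16, adjusted p = 0.0138). CDKN1A had the wider spread in both groups, although they did not overlap. CDK6 had 116, 119 and 114 CPM in siSTAT3_Vec, against 82.9, 102 and 95.5 CPM in NC_Vec, and did not pass (log2 fold change 0.31 ± 0.09, adjusted p = 0.0596). Under 11 other settings these 6 stayed called, the highest adjusted p being 0.0497.

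Whether STAT3 siRNA acted alike in both experiments, which share no library, was tested as an interaction in 1 fit of all 17 libraries. It differed at 2 of the 10 members, CDK6 and CDKN1B, where 5.51% of 86839 transcripts differed. CDK6 was lower in siSTAT3 than in NC and higher in siSTAT3_Vec than in NC_Vec, a difference of log2 fold changes of -1.46 ± 0.33 (adjusted p = 0.0198). For CDKN1B the difference was -1.15 ± 0.29 (adjusted p = 0.0328). Both are genes at which the NC pairs differed. With NC replicates 1 and 2 alone as the control the differences were -0.93 for CDK6 (adjusted p = 0.00093) and -0.69 for CDKN1B (adjusted p = 0.000847), and with NC replicates 3 and 4 alone they were -1.84 (adjusted p = 5.2e-06) and -1.50 (adjusted p = 5.98e-07). Without siSTAT3 replicate 1 or 2 neither passed (adjusted p 0.0706 to 0.142), and CDKN1B also missed the threshold without any 1 lentiviral library tested, at adjusted p 0.0507 to 0.0732. CCNB1, CDK2 and CDKN1A had differences of 0.13 ± 0.21, 0.13 ± 0.19 and 0.00045 ± 0.23 (adjusted p of at least 0.868). Those of MKI67 and CCND1 were -0.60 ± 0.32 and -0.52 ± 0.23 (adjusted p 0.37 and 0.257). CCND1, at which the NC pairs also differed, had -0.81 with NC replicates 3 and 4 alone and passed (edgeR adjusted p = 9.5e-06). With NC replicates 1 and 2 alone it had -0.16 and did not pass. Experiment and infection cannot be told apart here.

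**Figure D5:**
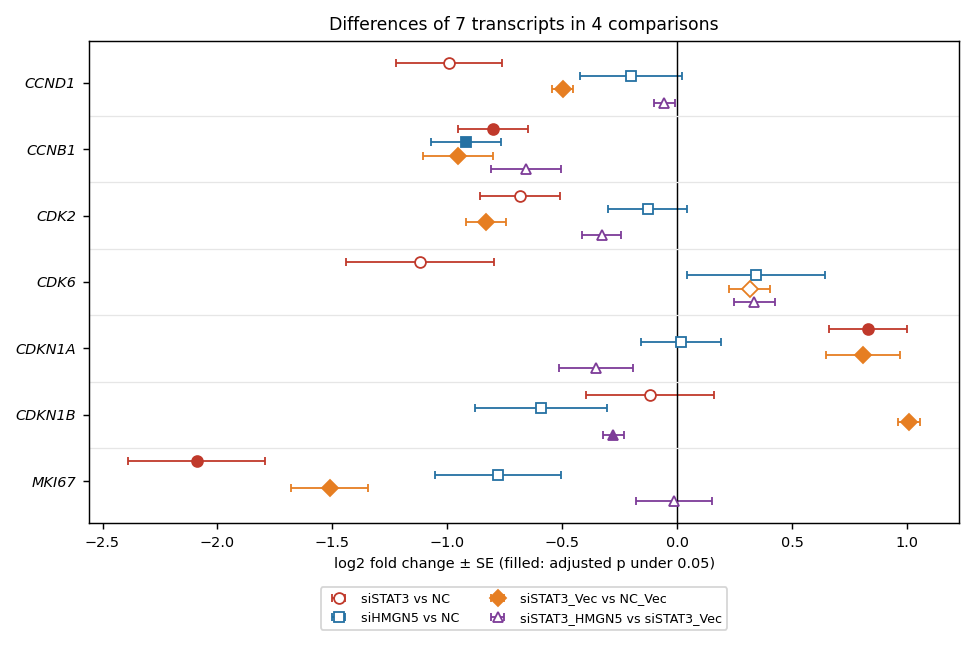
Log2 fold changes with SE of the 7 transcripts in 4 comparisons, filled where the adjusted p was under 0.05. For MKI67, CCNB1, CDK2 and CCND1 the values of siSTAT3 against NC and of siSTAT3_Vec against NC_Vec lie left of 0, and for CDKN1A right of it.

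In cells given STAT3 siRNA and infected with HMGN5, 1 of the 10 members differed from siSTAT3_Vec. There 3.77% of all transcripts passed and 12.5% of those with a mean of at least 10 CPM. CDKN1B fell in siSTAT3_HMGN5, with 85.5, 91.6 and 88.8 CPM against 110.1, 106 and 106 CPM in siSTAT3_Vec. The groups did not overlap, and CDKN1B was 1.21-fold lower (log2 fold change -0.28 ± 0.05, adjusted p = 0.0187). That call ended without any 1 siSTAT3_Vec library (adjusted p 0.0601 to 0.0748), without siSTAT3_HMGN5 replicate 1 or 3 (0.0635 and 0.069) and without the filter on low counts (0.0527).

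None of the remaining members tested passed by edgeR. With DESeq2, CCNB1 (adjusted p = 0.00175), CDK2 (0.00601) and CDK6 (0.0045) passed, where 7350 transcripts did against 2631 by edgeR. MKI67 had 12.2, 13.2 and 17.5 CPM in siSTAT3_HMGN5, against 16.3, 15.1 and 11.9 CPM in siSTAT3_Vec, with overlapping groups (log2 fold change -0.01 ± 0.17, adjusted p = 0.995). CCND1 had 250.1, 241 and 261 CPM in siSTAT3_HMGN5, against 257, 268 and 258 CPM in siSTAT3_Vec (-0.06 ± 0.05, adjusted p = 0.682). CCNB1 lay lower still, with 7.01, 7.32 and 6.22 CPM in siSTAT3_HMGN5 against 8.87, 13.1 and 10.4 CPM in siSTAT3_Vec (-0.66 ± 0.15, adjusted p = 0.0642). Without siSTAT3_Vec replicate 1, CCNB1 passed (adjusted p = 0.0486), as did CDK2 (adjusted p = 0.0436). CDK2 had 25.8, 23.7 and 22.7 CPM in siSTAT3_HMGN5, against 26.7, 32.1 and 32.0 CPM in siSTAT3_Vec (-0.33 ± 0.09, adjusted p = 0.0956). CDKN1A had 54.5, 59.5 and 55.6 CPM in siSTAT3_HMGN5, against 59.6, 73.3 and 83.6 CPM in siSTAT3_Vec (-0.35 ± 0.16, adjusted p = 0.349). CDK6 had 132, 150.1 and 158 CPM in siSTAT3_HMGN5, against 116, 119 and 114 CPM in siSTAT3_Vec (0.34 ± 0.09, adjusted p = 0.104). The groups did not overlap at CCNB1, CDK2, CDKN1A or CDK6, a description without the share of all transcripts beside it. At CDKN1A the nearest libraries were 59.52 CPM in siSTAT3_HMGN5 and 59.64 CPM in siSTAT3_Vec. The median log2 fold change of the 7 was -0.28, against -0.0059 over all transcripts.

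Against NC_Vec, the cells with STAT3 siRNA and HMGN5 differed at 6 of the 10 members, where 22.3% of all transcripts passed and 51.4% of those with a mean of at least 10 CPM. This comparison shares its NC_Vec libraries with siSTAT3_Vec against NC_Vec, and its siSTAT3_HMGN5 libraries with the comparison before it. CCNB1 was 3.05-fold lower in siSTAT3_HMGN5 (log2 fold change -1.61 ± 0.16, adjusted p = 0.000279), MKI67 2.88-fold lower (-1.53 ± 0.17, adjusted p = 0.000534), CDK2 2.23-fold lower (-1.16 ± 0.09, adjusted p = 8.44e-05) and CCND1 1.47-fold lower (-0.55 ± 0.05, adjusted p = 0.000132). CDKN1B was 1.66-fold higher (0.73 ± 0.05, adjusted p = 3.8e-05) and CDK6 1.57-fold higher (0.65 ± 0.09, adjusted p = 0.00175). CDKN1A did not pass at 0.45 ± 0.16 (adjusted p = 0.0853), although its 3 siSTAT3_HMGN5 libraries all lay above the 3 of NC_Vec. It passed without NC_Vec replicate 3 (adjusted p = 0.0488).

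Likeness between members was described by the mean absolute difference of their log2 fold changes over 4 comparisons, the knockdowns against NC, siSTAT3_Vec against NC_Vec and siSTAT3_HMGN5 against siSTAT3_Vec. CCND1 and CDK2 were each other's nearest, at 0.25, and CDKN1A and CDKN1B were each other's nearest, at 0.46. CDK2 was also the nearest to CCNB1, at 0.34, and CCNB1 the nearest to MKI67, at 0.66. CDK6 was nearest to CCND1, at 0.47. The widest gap was between MKI67 and CDKN1A, at 1.59. The comparisons share control libraries, so this is a description with no test.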

How the data were processed

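Poly(A) RNA of 17 libraries was analysed, grouped by sample titles, and 2 H3K27ac samples were not analysed here. Per the file headers, the authors' files list a transcript length, an effective length, TPM and an estimated count of reads. Tools listed in the submitters' processing notes are Bowtie2, CASAVA, HOMER and Salmon 1.4.0, and the builds GRCh38 and hg38. The deposited expected counts divide reads shared between transcripts. TPM values, as the authors deposited them, account for length and served here only to compare levels between genes. Lengths in the deposited files are in bases.

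Counts were rounded and each experiment fitted apart with edgeR 4.0.16 (R 4.3.3; TMM, filterByExpr, glmQLFit, glmQLFTest; Benjamini-Hochberg over all transcripts tested, threshold 0.05). Each SE is the absolute log2 fold change over the root of its F statistic. CPM used TMM-scaled library sizes. Alternatives were DESeq2 1.42.0, RLE size factors, no filter, only the groups compared, a replicate block, each NC pair and each library left out, the last for the NC pairs added after seeing the data. The fit was tested on simulated data. A count of 3 reads was 0.154 to 0.157 CPM in the siRNA experiment and 0.13 to 0.133 CPM in the lentiviral one, for counting error only. All 10 listed members are named. Members and lists were chosen with earlier results of these data known, and fold changes are given for the 7 with at least 10 reads in every library, a limit set after seeing the data. Other cell cycle genes were not analysed, because no table at hand pairs transcript IDs with symbols.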

Additional observations from a re-analysis of the deposited data

Results flagged for a closer look

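CDK4 in NC stood out because its highest library, replicate 1, held the only reads of the group, so the gap to the others was 1.0 of the group's range of CPM. CDKN1A in NC stood out because replicate 1, at 21.0 CPM, lay apart from the 3 others at 30.1 to 31.2 CPM, a gap of 0.897 of the range. Among 9 members with a range in that group, chance alone flags about 1 in 20. Without NC replicate 1, the CDKN1A difference of siSTAT3 from NC was 0.71 on the log2 scale and passed (edgeR adjusted p = 0.0228).

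For CDK6 the STAT3 siRNA effect differed between the experiments by -1.46 on the log2 scale (siRNA minus lentiviral), and for CDKN1B by -1.15. Both were tested as an interaction and both passed. Both genes also differed between the NC pairs, by 0.90 and 0.79 on the log2 scale, and the part of that difference in the result was not tested beyond the values against each pair.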

How the results depend on the processing

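Over 250 recomputations of called log2 fold changes, 202 stayed past the threshold, 48 did not and 0 changed sign. The calls of siSTAT3_Vec against NC_Vec held in 66 of 66, and so did those of siSTAT3_HMGN5 against NC_Vec in its own 66. The number of members called for siSTAT3 against NC was 3, and it was 6 with DESeq2, 6 against NC replicates 1 and 2, 6 against NC replicates 3 and 4, 1 without a low-count filter, 1 with only the groups compared, and 0 to 2 without any 1 library. For siHMGN5 against NC it was 1, with 2 and 3 against the pairs and 0 to 1 without any 1 library. For siSTAT3 against siHMGN5 it was 0, with 4 by DESeq2, 3 with only those groups in the fit, 2 with a replicate block and 0 to 0 without any 1 library. For siSTAT3_HMGN5 against siSTAT3_Vec it was 1, with 4 by DESeq2, 0 without a filter, 0 with a replicate block and 0 to 2 without any 1 library. The interaction had 2, with 0 to 2 without any 1 library. With NC replicates 3 and 4 alone the interaction reached 3. Calls over the whole table shifted as well. They were 3181 for siSTAT3 against NC, with 8060 by DESeq2, 5298 and 7321 against the pairs and 2136 without a filter. For siHMGN5 against NC they were 2521, with 4163 and 7656 against the pairs. Between siSTAT3 and siHMGN5 they were 2893, with 7672 by DESeq2. For siSTAT3_HMGN5 against siSTAT3_Vec they were 2631, with 7350 by DESeq2. The cause of these shifts was not tested.

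Signs changed only at differences that had not passed. Against NC replicates 1 and 2 the log2 fold change was 0.33 for CDKN1B in siSTAT3 and 0.15 for CCND1 in siHMGN5. With a replicate block they were 0.33 and 0.15, but there the NC fold changes rest on the same replicates 1 and 2. Against NC replicates 3 and 4, siHMGN5 had 0.093 for CDK2, -0.036 for CDK6 and -0.11 for CDKN1A. The interaction was -0.015 for CDKN1A without a filter and -0.14 with NC replicates 3 and 4, and -0.060 for CDK2 with NC replicates 1 and 2. Without any 1 library the ranges that crossed 0 were -0.26 to 0.019 for CDKN1B in siSTAT3, -0.10 to 0.067 for CDKN1A in siHMGN5, -0.056 to 0.28 for CCNB1 between the knockdowns, -0.19 to 0.085 for MKI67 with HMGN5, -0.16 to 0.12 for CCNB1 between NC pairs, and -0.051 to 0.29 for CCNB1 and -0.15 to 0.13 for CDKN1A in the interaction.

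Replicate numbers did not pair the libraries: same-numbered libraries of different groups had deviations correlated at -0.019 to 0.031 in the siRNA experiment and -0.075 to 0.032 in the lentiviral one. With the replicate block 3 members passed for siSTAT3 against NC, CCND1, CDK2 and CDK6 in place of MKI67 (edgeR adjusted p = 0.0686), CCNB1 (0.0877) and CDKN1A (0.123). For siSTAT3_HMGN5 against siSTAT3_Vec the block gave CDKN1B 0.0796. For siHMGN5 against NC it was 1 under the block, CDK6 (adjusted p = 0.0311) in place of CCNB1 (0.0855). Transcripts called over the whole table ranged from 775 to 8060 around 3181 for siSTAT3 against NC, from 551 to 7656 around 2521 for siHMGN5 against NC, from 844 to 7672 around 2893 for siSTAT3 against siHMGN5, from 6994 to 15994 around 9953 for siSTAT3_Vec against NC_Vec, from 1156 to 7350 around 2631 for siSTAT3_HMGN5 against siSTAT3_Vec, from 770 to 8529 around 3262 between NC pairs and from 3061 to 9904 around 4784 for the interaction.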
